A study of Mus musculus with 4 samples.

Results

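The 35 genes described here encode the extracellular and membrane part of BMP, TGF-β and activin signalling: 15 ligand genes, 14 receptor and co-receptor genes and 6 antagonist genes. They were taken as a fixed list of symbols, all of which matched the RefSeq table of mouse assembly GRCm38.p6 (the same assembly as mm10), among 21523 protein-coding genes on chromosomes 1 to 19 and X. The ligands were Bmp2, Bmp3, Bmp4, Bmp5, Bmp6, Bmp7, Gdf5, Gdf6, Gdf11, Tgfb1, Tgfb2, Tgfb3, Inha, Inhba and Inhbb. The receptors were Bmpr1a, Bmpr1b, Bmpr2, Acvr1, Acvr1b, Acvr1c, Acvr2a, Acvr2b, Acvrl1, Tgfbr1, Tgfbr2 and Tgfbr3, with the co-receptors Rgma and Rgmb. The antagonists were Nog, Grem1, Chrd, Fst, Fstl1 and Twsg1. The data came from CUT&RUN, in which an antibody directs micrococcal nuclease to cut out the DNA around a bound protein, on cells dissociated from E13.5 (embryonic day) molar tooth germs of CD1 mice with a wild-type genotype. All 4 libraries shared this tissue, genotype and age; the antibody recognised phosphorylated Smad1/5 (pSmad1/5) in 2 of them and phosphorylated Smad3 (pSmad3) in the other 2. Whole tooth germs hold epithelium and mesenchyme together, so a peak cannot be placed in either tissue.

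Ligands of this family bind pairs of type I and type II receptor kinases, and the type I receptor then phosphorylates receptor Smads. BMP ligands act mainly through Smad1/5, and TGF-β and activin ligands through Smad2 and Smad3. Secreted antagonists hold ligands away from the receptors, and in the early tooth the BMP and activin signals pass between epithelium and mesenchyme as the bud forms. Phosphorylated Smads enter the nucleus and bind DNA. A peak near a gene of this list marks signal of a Smad antibody close to a gene of the same family of pathways. The comparison asks how often this occurs, for which roles and for which antibody.

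Each antibody has 1 deposited list of peaks common to its 2 libraries, with 10741 lines for pSmad1/5 and 7905 for pSmad3, and read depth is unknown. A line is called a peak here, and a gene's locus is the gene body with 10 kb on either side. With 1 list per antibody there is no replicate value, so counts are given without a test, beside the same count over all protein-coding genes. Lines that share total signal, maximum and region of the maximum are pieces of 1 call. That region lay within or across the line for 36.7% of pSmad1/5 and 74.8% of pSmad3 lines, so a line can lie beside the strongest point of its call. Of 5 genes that mark the dental mesenchyme and 5 that mark the dental epithelium, 1 (Msx1) and 2 (Krt14 and Shh) had a pSmad1/5 peak and 0 a pSmad3 peak. At their locus lengths, genes in general would give 1.43 and 1.38 for pSmad1/5 and 1.2 and 1.24 for pSmad3. Occupancy is not expression, and the tissue label could not be checked from these lists.

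None of the member promoters in the RefSeq table lay under a peak. The table holds 300 bases per start, 250 before it and 50 after, and gave 30 windows for 24 of the 35 members. The members without a window were Acvrl1, Bmp2, Bmp3, Bmp7, Fst, Gdf5, Gdf6, Nog, Rgma, Tgfb3 and Tgfbr3. Of the 30 windows, 0 overlapped a pSmad1/5 peak and 0 a pSmad3 peak, where 3.1% and 3.84% of all 32619 windows did, so a count of 0 in 30 is close to that background. The median distance from a member's start to the nearest peak was 160 kb for pSmad1/5 and 174 kb for pSmad3, against 77.4 kb and 99.9 kb over all windows. These medians leave out 5 of the 10 members with a peak (Bmp7, Tgfb3, Tgfbr3, Acvrl1 and Nog), which have no window, and count Bmpr1b and Rgmb 3 times each. The distances from the gene over all 35 members do not have this limit. Windows of Bmp6, with the closest peaks (2503 bp for pSmad1/5 and 4093 bp for pSmad3), of Tgfbr2, with a pSmad1/5 peak 4307 bp away, and of Bmp4, a dental mesenchyme signal with no peak within 100 kb, are shown 5′ to 3′ along the gene's strand. Capitals mark CAGAC or its reverse complement, the core of the CAGA box that Smad3 and Smad4 bind.
Bmp6: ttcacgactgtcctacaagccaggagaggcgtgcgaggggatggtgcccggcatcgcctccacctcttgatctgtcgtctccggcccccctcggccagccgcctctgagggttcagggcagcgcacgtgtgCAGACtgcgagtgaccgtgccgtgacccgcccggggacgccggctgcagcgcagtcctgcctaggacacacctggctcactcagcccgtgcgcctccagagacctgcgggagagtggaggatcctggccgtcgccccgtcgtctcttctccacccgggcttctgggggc
Tgfbr2: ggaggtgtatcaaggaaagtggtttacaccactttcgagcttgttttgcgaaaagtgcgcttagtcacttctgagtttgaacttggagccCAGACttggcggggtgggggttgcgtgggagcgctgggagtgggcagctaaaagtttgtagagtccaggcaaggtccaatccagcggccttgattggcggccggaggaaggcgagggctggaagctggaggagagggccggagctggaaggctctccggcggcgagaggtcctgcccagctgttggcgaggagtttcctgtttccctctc
Bmp4: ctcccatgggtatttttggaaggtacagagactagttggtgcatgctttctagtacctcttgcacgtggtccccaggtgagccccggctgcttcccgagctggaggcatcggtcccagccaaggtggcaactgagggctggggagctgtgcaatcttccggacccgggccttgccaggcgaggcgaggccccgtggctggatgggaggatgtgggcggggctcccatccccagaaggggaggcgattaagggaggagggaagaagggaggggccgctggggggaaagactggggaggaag
The windows lie at chr13:38345466-38345765 (+ strand), chr9:116175314-116175613 (- strand) and chr14:46390620-46390919 (- strand), GRCm38.p6. Those of Bmp6 and Tgfbr2 each hold 1 CAGAC match and that of Bmp4 holds 0.

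Member promoters held CAGAC about as often as all promoters and GGCGCC more often, a difference that was not tested. CAGAC, searched on both strands, was present in 15 of 30 member windows and in 49.5% of all windows. The GC-rich element GGCGCC, its own reverse complement, was present in 7 member windows (23.3%), those of Chrd, Grem1, Acvr1b, Bmpr1a, Bmpr2, Rgmb and Tgfbr1, and in 12.0% of all windows, which include genes of every type. The palindrome GTCTAGAC, which is its own reverse complement and does not contain CAGAC, was in 0 member windows and 0.215% of all windows. The BMP-responsive element consensus was in 0 and 0.353%. A match describes letters only, and none of the 7 genes with GGCGCC had a peak of either antibody in its locus.

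Across the list, 8 of 35 members had a pSmad1/5 peak in the locus (22.9%, against 27.3% of protein-coding genes) and 6 had a pSmad3 peak (17.1%, against 24.4%). Longer loci hold a peak more often, from 6.31% of genes in the shortest of 20 length bins to 46.4% in the longest for pSmad1/5, and from 3.71% to 38.5% for pSmad3. If each member had the share of its own length bin, 10.7 members would have a pSmad1/5 peak and 9.59 a pSmad3 peak. Peaks of both antibodies were present at 4 members, Bmp6, Bmp7, Tgfb3 and Tgfbr3 (5.73 at these lengths, and 14.1% of protein-coding genes). A pSmad1/5 peak without a pSmad3 peak was present at 4 members, Inhbb, Tgfbr2, Nog and Fstl1 (13.2% of protein-coding genes). A pSmad3 peak without a pSmad1/5 peak was present at 2, Bmpr1b and Acvrl1 (10.3%). The other 25 members, or all but 10, had neither, and 37.6% of protein-coding genes had at least 1 of the 2. The plot of peak share against locus length shows these length bins with the members under them.

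**Figure D1:**
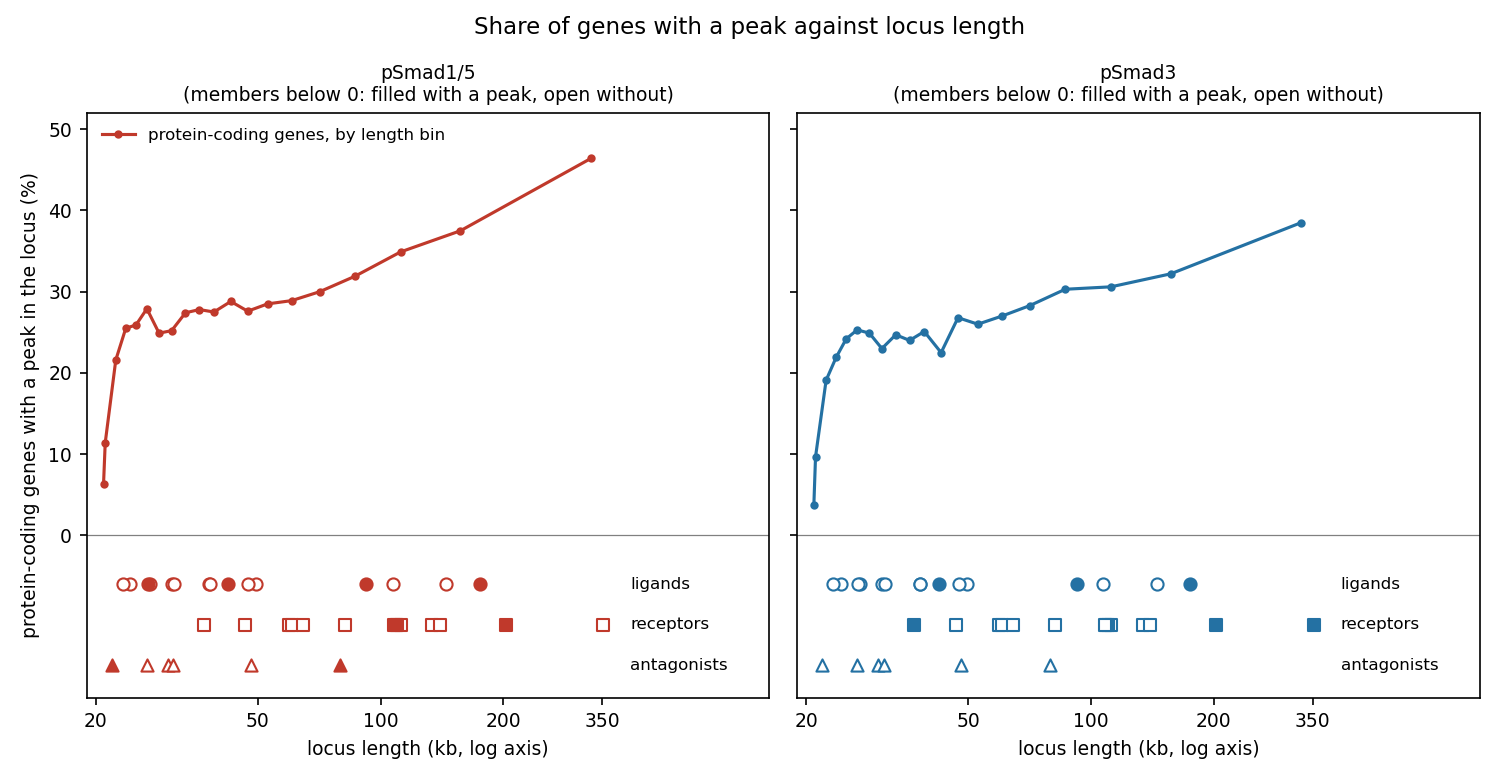
Lines give the percentage of protein-coding genes with a peak in the locus (y axis) at the median locus length of each of 20 bins (x axis, kb, log scale), for pSmad1/5 (left) and pSmad3 (right). Symbols below 0 place the 35 members by locus length, filled where the member has a peak, and show 8 filled symbols on the left and 6 on the right.

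The ligand genes held most of the peaks, and these were concentrated in Bmp6 and Bmp7. Of 15 ligand genes, 4 had a pSmad1/5 peak (4.38 at these lengths) and 3 a pSmad3 peak (3.92). Their loci held 10 of the 16 pSmad1/5 peaks and 7 of the 10 pSmad3 peaks of the whole list. Bmp6 and Bmp7 alone held 7 and 6 of them. Counted as calls, Bmp6 held 2 and Bmp7 3 of the 14 pSmad1/5 calls of the list. The Bmp6 counts also changed with the setting. It had 0 pSmad1/5 peaks with the gene body alone and 1 without peaks above 2 times the median maximum. At or above the median total signal it had 2 pSmad1/5 peaks and 1 pSmad3 peak, and Bmp7 had 3 and 2. Per Mb of locus, ligands had 11.1 pSmad1/5 and 7.8 pSmad3 peaks, against 6.78 and 5.31 for protein-coding genes, which were pooled without matching for length. Without Bmp6 and Bmp7, a division made after their values were seen, the other 13 ligands had 4.76 and 1.59.

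Bmp6, a BMP ligand of the same subgroup as Bmp5 and Bmp7 (chromosome 13, 38345716 to 38500314), was the only member at which a pSmad1/5 line and a pSmad3 line overlapped. Upstream of its start, 1 pSmad1/5 call was deposited in 2 pieces, from 38337961 to 38339579 and from 38341917 to 38343213. A pSmad3 peak ran from 38338051 to 38341623, across the first piece and to within 294 bp of the second. Both calls had their maxima near the same place, at 38338222 to 38338223 for pSmad1/5 and 38338481 to 38338483 for pSmad3. The maximum signals, in the authors' own scaling, were 33 for pSmad1/5 (list median 16) and 22 for pSmad3 (list median 13), above 91.0% and 92.0% of the lines of their lists and the highest of any member peak in each list. Total signal lay above 69.0% of the pSmad1/5 list but only 4.76% of the pSmad3 list. At the other end of the gene, a pSmad3 peak crossed the gene end (38497539 to 38502735) and a pSmad1/5 peak began 24 bp beyond it (38502759 to 38504941), with maxima of 10 and 13, above 1.99% and 4.28% of their lists. This pair also lay in the locus of Txndc5, the gene nearest to the pSmad1/5 peak. A further pSmad3 peak lay inside the gene (38481803 to 38483539, maximum 18), above 86.2% of its list by maximum. The region of that maximum lay 4686 bp outside the line, at 38476989 to 38477117, still inside the gene.

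Bmp7, a ligand expressed in many budding epithelia (chromosome 2, 172868012 to 172940321), had the most peaks of any member, 4 for pSmad1/5 from 3 calls and 3 for pSmad3. The pSmad1/5 peaks all lay inside the gene. The largest, from 172910814 to 172919026, was 8213 bp wide and shared its call with the peak at 172899825 to 172902167. Its total signal lay above 85.5% of the list, the highest rank of any member peak, while its maximum of 16 equalled the list median. The fourth was a short line of 275 bp above only 1.07% of the list by total signal. The pSmad3 peaks lay 8991 bp outside the gene (172855414 to 172859021), inside it (172874926 to 172879056) and inside it near the other end (172930916 to 172936563). The first of these met only the edge of the locus, and its maximum, at 172856917 to 172856954, lay outside the locus. Counted by peak midpoints, Bmp7 had 4 pSmad1/5 and 2 pSmad3 peaks, and Bmp6 had 3 of each. No lines of the 2 lists overlapped at Bmp7. The pSmad3 peak from 172874926 lay 850 bp from the pSmad1/5 peak that starts at 172879906, whose own maximum, at 172874980 to 172874987, fell within that pSmad3 peak. Peaks covered 13.9% of the Bmp7 locus for pSmad1/5 and 11.7% for pSmad3, against 2.92% and 6.02% at Bmp6.

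Tgfb3, a TGF-β ligand with a known role in palate fusion (chromosome 12, 86056743 to 86079041), had peaks at both of its ends. A pSmad3 peak crossed the lower-coordinate end (86054003 to 86057235, total signal above 69.8% of the list, maximum 15). A pSmad1/5 peak followed 174 bp further on (86057409 to 86059701, above 74.2%, maximum 15). These maxima lay above 67.6% of the pSmad3 list but only 24.4% of the pSmad1/5 list. That of the pSmad1/5 call lay at 86051175 to 86055890, outside the gene. The other pSmad1/5 peak ended 152 bp inside the opposite end (86077125 to 86078889, above 45.1%). Each of these peaks also lay in the locus of a neighbour, Ttll5 or Ift43. Inhbb, which encodes the βB subunit of activin and inhibin (chromosome 1, 119415463 to 119422248), had a single pSmad1/5 peak 2800 bp beyond the end of the gene (119410814 to 119412663), although the maximum of that call, 16, lay inside the gene.

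The remaining 11 ligands had no peak of either antibody. These were Bmp2 and Bmp4, signals of the early tooth germ, Bmp3, a BMP family member that opposes BMP signalling, and Bmp5. They also included the Gdf genes, with Gdf5 and Gdf6 known from joint formation and Gdf11 from axial patterning. Tgfb1 and Tgfb2 had none, nor did Inha, the inhibin α subunit, and Inhba, the activin subunit needed for several mouse teeth. The nearest peak to Bmp4 was a pSmad3 peak 143 kb from the gene, and its nearest pSmad1/5 peak was 341 kb away. For Bmp2 these distances were 477 kb and 646 kb. Inha and Tgfb1 lay closest to a peak among all members without one, at 12.0 kb and 17.4 kb from a pSmad3 peak.

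**Figure D2:**
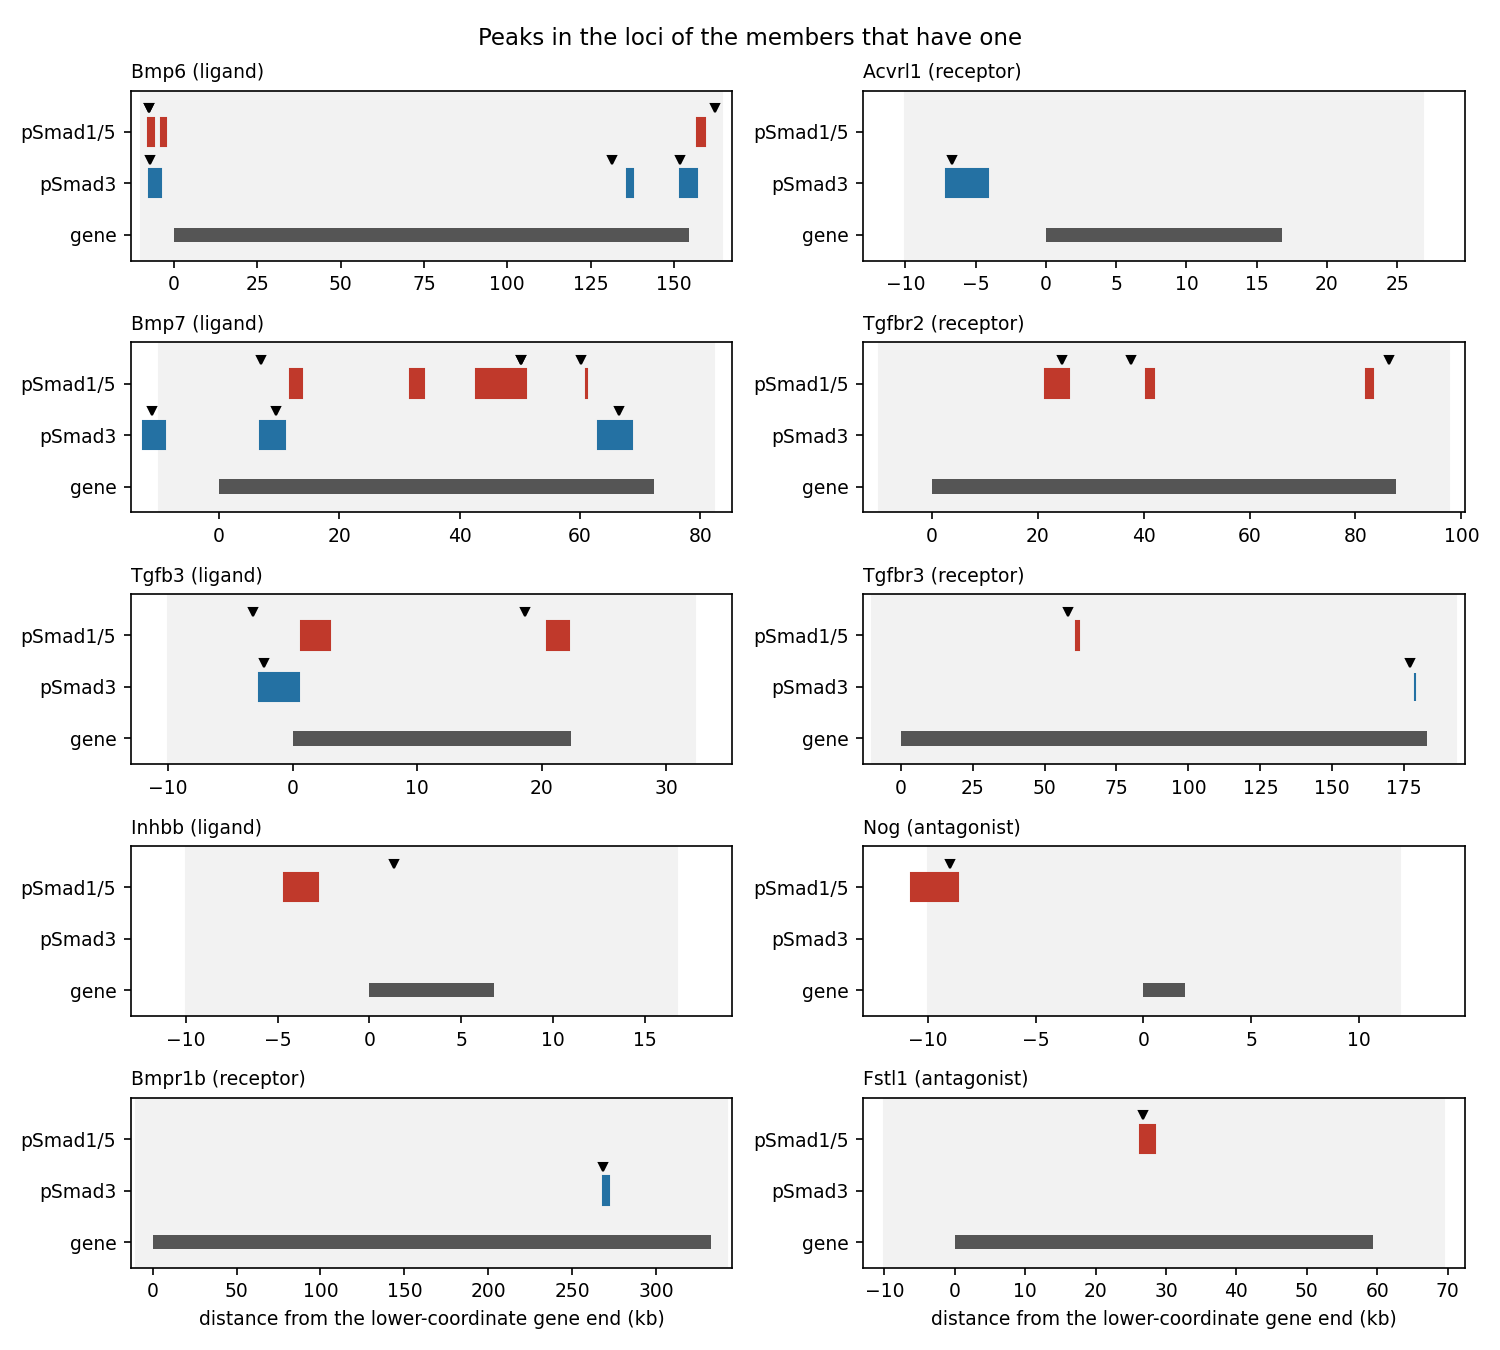
Each panel maps the peaks at 1 of the 10 members that have any, with distance from the lower-coordinate gene end on the x axis (kb); red bars are pSmad1/5 lines, blue bars pSmad3 lines, dark bars the gene, triangles the midpoint of the region of maximum signal and grey shading the locus. Bmp6 is the only panel in which a red and a blue bar overlap, and Bmp7 has the most bars, 4 red and 3 blue.

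Receptor genes have long loci, with a median of 108 kb against 38.1 kb for ligands, but did not have correspondingly more peaks. Of 14 receptor and co-receptor genes, 2 had a pSmad1/5 peak (4.72 at these lengths) and 3 a pSmad3 peak (4.19). Per Mb of locus they had 2.47 pSmad1/5 and 1.85 pSmad3 peaks, against 6.78 and 5.31 for protein-coding genes. Those protein-coding values pool loci of every length (median 37.4 kb) and are not matched to the longer receptor loci. Since counts this small come from 1 list each, the differences from the length-based numbers were not tested.

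Among the 7 type I receptor genes, whose kinases phosphorylate the Smads, 0 had a pSmad1/5 peak and 2 had a pSmad3 peak (2.42 and 2.13 at their lengths). Bmpr1b, a BMP type I receptor known from cartilage (chromosome 3, 141837135 to 142169585), has the longest locus of the list, 352 kb. It had 1 pSmad3 peak deep inside the gene (142105203 to 142109149, total signal above 17.6% of the list, maximum 13) and no pSmad1/5 peak, while 46.4% of protein-coding genes of such length had one. Acvrl1, a type I receptor known from endothelium (chromosome 15, 101128522 to 101145336), had 1 pSmad3 peak 4114 bp outside the gene (101121431 to 101124408, above 25.9%, maximum 12), which lay nearer to Ankrd33. Bmpr1a and Acvr1, receptors for BMP, and Acvr1b, Acvr1c and Tgfbr1, receptors for activin, nodal and TGF-β ligands, had no peak.

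Among the 4 type II receptor genes, only Tgfbr2, which binds TGF-β ligands (chromosome 9, 116087695 to 116175363), had peaks. At the lengths of these 4 genes, 1.36 would have a pSmad1/5 peak and 1.2 a pSmad3 peak. Tgfbr2 had 3 pSmad1/5 peaks from 3 calls and no pSmad3 peak within 429 kb. All 3 lay inside the gene. The strongest (116109110 to 116113538) had a maximum of 22, above 82.5% of the list. The peak closest to the start (116169615 to 116171056) had a maximum of 20, above 76.8%, and the region of that maximum lay closer still to the start, at 116173963 to 116173967. The remaining one (116128123 to 116129571) was among the lowest of its list by total signal, above 0.121%. Bmpr2, Acvr2a and Acvr2b, the type II receptors for BMP and activin ligands, had none.

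Of the 3 co-receptors, Tgfbr3, or betaglycan, which presents TGF-β ligands and inhibin to the receptors (chromosome 5, 107106567 to 107289629), had a peak of each antibody. At the lengths of the 3 co-receptors, 0.94 would have a pSmad1/5 peak and 0.86 a pSmad3 peak. The peaks of Tgfbr3 were 116819 bp apart and both narrow. The pSmad1/5 peak (107167376 to 107168498) had a maximum of 11, above only 0.0652% of the list. The pSmad3 peak (107285317 to 107285394) was 78 bp wide, the shortest of any member. Its total signal nevertheless lay above 54.3% of the list, against 16.7% for the pSmad1/5 peak. Both maxima lay outside their lines, 2528 bp away for pSmad1/5 and 1730 bp away for pSmad3. Rgma and Rgmb, membrane-anchored BMP co-receptors, had no peak closer than 209 kb. For Acvr1 and Acvr1c, which are neighbours 88.5 kb apart, the nearest pSmad3 peaks were 1180 kb and 1390 kb away, and for Bmpr2 1440 kb, the largest distance of the list. Acvrl1 and Acvr1b are also neighbours, 28.7 kb apart, so the members of such pairs share their surroundings.

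Of the 6 antagonist genes, 2 had a pSmad1/5 peak (1.59 at their lengths) and 0 a pSmad3 peak (1.48). Nog, which encodes the BMP antagonist noggin (chromosome 11, 89300638 to 89302559), had its pSmad1/5 peak at a distance of 8616 bp (89289844 to 89292022, total signal above 36.3% of the list), with a maximum of 12 against a list median of 16. Fstl1, which encodes a secreted follistatin-like glycoprotein (chromosome 16, 37777055 to 37836516), had a pSmad1/5 peak inside the gene, 26326 bp from its start (37803381 to 37805535, above 16.2%, maximum 13). Both maxima were below the lower quartile of the list, 15. Grem1 and Chrd, antagonists of BMP ligands, Fst, whose product follistatin binds activin, and Twsg1, a modulator of chordin and BMP, had no peak. Chrd was the nearest of these to a peak, at 19.8 kb for pSmad3 and 21.8 kb for pSmad1/5.

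Member peaks were ordinary in rank within their lists. The median member peak had a total signal above 42.0% of the pSmad1/5 list and 44.8% of the pSmad3 list, and 0 of 16 and 0 of 10 reached the top 10% of the list by total signal. Median widths were 1905 and 3590 bp, against 2385 and 4693 bp for the whole lists. Of the pSmad1/5 peaks 11 lay inside a gene of the list, 0 across a gene end and 5 outside, and of the pSmad3 peaks 5, 2 and 3. Gene bodies make up much of these loci, and the same split over all protein-coding loci was not computed. The 2 pieces of the upstream Bmp6 call were the only ones whose maximum exceeded 2 times the list median. By maximum, the peaks that ranked above 60% of their list belonged to Bmp6, Bmp7, Tgfb3 and Tgfbr2, as the plot of ranks shows.

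**Figure D3:**
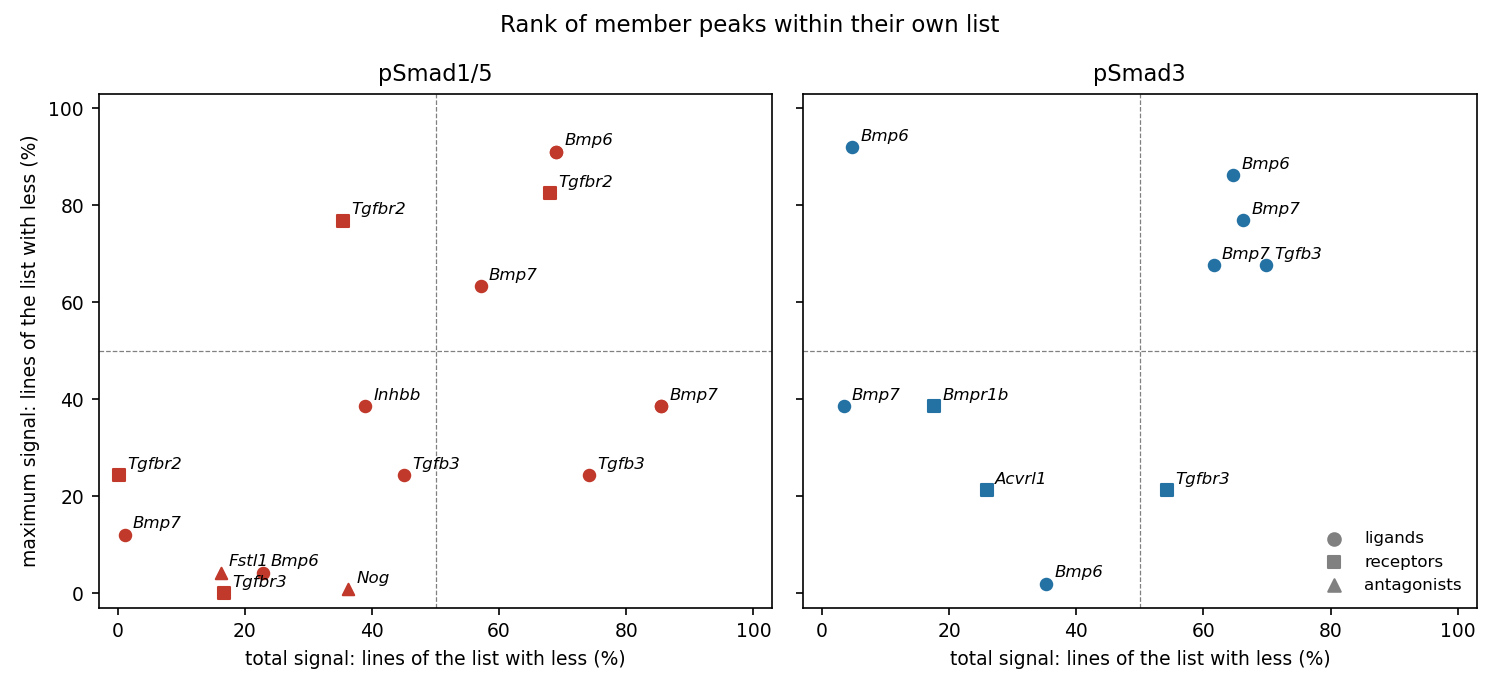
Each point is a peak of a member (16 for pSmad1/5, left, with the 2 piece pairs of Bmp6 and Bmp7 each at 1 place; 10 for pSmad3, right), placed by the percentage of lines in its own list with a lower total signal (x axis) and a lower maximum (y axis). The upstream Bmp6 calls lie at the top of both panels by maximum, above 91.0% and 92.0% of the lines, and apart in total signal.

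How often member peaks met the other list depended on what was counted. As lines, 1 of 16 pSmad1/5 and 1 of 10 pSmad3 member peaks overlapped the other list, both at Bmp6, against 21.8% and 23.1% of all lines. With each call rebuilt to span its lines and the region of its maximum, a definition added after the data were seen, the other list was met by 3 of 14 pSmad1/5 calls and by 3 of 10 pSmad3 calls, at Bmp6, Bmp7 and Tgfb3, against 24.1% and 28.2% of all calls. Of the member peaks, 13 of 16 and 7 of 10 lay in the locus of no other protein-coding gene. In each list 1 was nearer to another gene (Txndc5 and Ankrd33). The same shares over all lines were not computed, so these counts cannot set the member peaks apart from peaks in general.

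Sorted by branch instead of role, the counts for each antibody stayed near or below the length-based numbers in both branches. The BMP branch had 18 genes, of which a pSmad1/5 peak was present at 3 (5.53 at their lengths) and a pSmad3 peak at 4 (4.93). Among 12 genes of the TGF-β and activin branch, 4 had a pSmad1/5 peak (3.68) and 2 a pSmad3 peak (3.29). The other 5 members, Bmp3, Inha, Acvr2a, Acvr2b and Fstl1, serve both branches or neither. Of these, 1 had a pSmad1/5 peak (1.49 at their lengths) and 0 a pSmad3 peak (1.37). The counts are small, and the difference between branches was not tested.

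Many members lay far from any peak, as did many protein-coding genes. The median distance from a member to the nearest pSmad1/5 peak was 71.2 kb, against 58.1 kb for protein-coding genes, and to the nearest pSmad3 peak 132 kb, against 79.2 kb. More than 100 kb separated 16 members from the nearest pSmad1/5 peak (45.7%, against 40.1% of protein-coding genes) and 18 from the nearest pSmad3 peak (51.4%, against 45.8%). For 13 members this held for both lists, where 31.1% of protein-coding genes did. By role, the median distance was 50.2 kb for ligands, 102 kb for receptors and 86.0 kb for antagonists in the pSmad1/5 list, and 64.3, 139 and 277 kb in the pSmad3 list. The members farthest from any peak were Tgfb2 (614 kb), Inhba (605 kb) and Bmp2 (477 kb). The 10 kb edge of the locus did not divide closely spaced values for pSmad1/5, where the farthest peak counted lay 8.62 kb from Nog and the nearest left out 21.8 kb from Chrd. For pSmad3 the corresponding distances were 8.99 kb at Bmp7 and 12.0 kb at Inha.

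**Figure D4:**
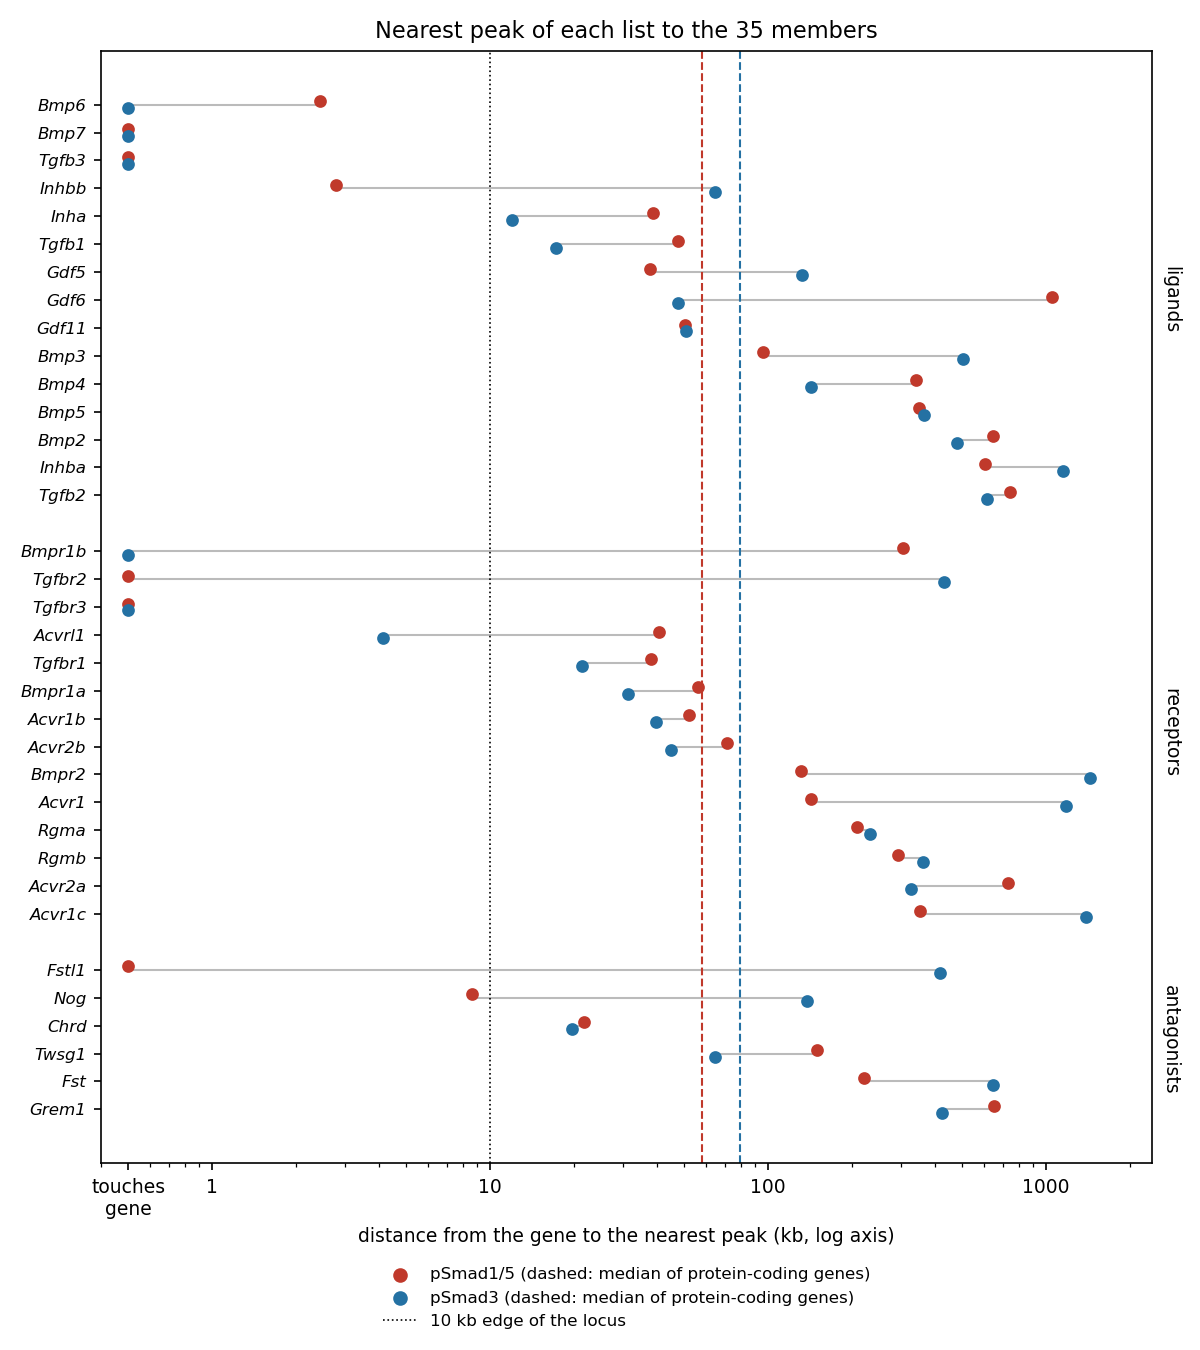
Distance from each of the 35 members (rows, grouped by role and ordered by the nearer list) to the nearest peak of pSmad1/5 (red) and pSmad3 (blue) on a log axis in kb, with the 10 kb edge of the locus dotted and the medians of protein-coding genes, 58.1 and 79.2 kb, dashed. Genes at the left mark touch a peak, and the points of 13 members lie beyond 100 kb for both antibodies.

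Among 36 further genes of the pathway, listed for comparison, 10 had a pSmad1/5 peak (10.1 at their lengths) and 6 a pSmad3 peak (9.06), with 4 having both. Of 18 other ligand genes, 6 had a pSmad1/5 peak (4.79 at their lengths) and 1 a pSmad3 peak (4.26), and several of these were neighbours that share peaks. Gdf10 and Gdf2, 4.53 kb apart, each had 2 pSmad1/5 peaks, 1 of them common to both, and Inhbe and Inhbc, 4.47 kb apart, had 3 and 2, 2 of them common. Of 6 other receptors and co-receptors only Eng, an endothelial co-receptor, had peaks, 3 of each antibody (1.57 and 1.48 genes at these lengths). Of 12 other extracellular modulators, 3 had a pSmad1/5 peak (3.76 at their lengths) and 4 a pSmad3 peak (3.32). Bmp1, a metalloproteinase that cleaves chordin, had 3 pSmad1/5 and 2 pSmad3 peaks, and Nbl1, a BMP antagonist, had 2 and 1. The pSmad1/5 peaks came from 2 calls each at Inhbe, Eng and Bmp1, and from 1 each at Inhbc and Nbl1. Peaks outside the Bmp1 gene lay nearer to Phyhip and Lgi3. The pSmad3 peak of Nbl1 had a maximum of 8, above 0.0% of its list, and a total signal above 0.822%.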

How the data were processed

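The authors deposited 1 peak list per antibody. Per the labels, a line holds a position, a total and a maximum of the coverage signal, and where the maximum lies. The deposited total is treated as a score for ranking. The sources used here do not give the scaling. Per the submitters' processing notes, Bowtie2, SAMtools, bedtools, SEACR and deepTools were used with mm10, with no versions. Nor do they give the SEACR threshold, any control or how libraries were joined. Signals were used only to rank peaks within their own list.

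Overlap (at least 1 bp) with the gene body and 10 kb on each side was counted in Python 3.11.15 with pandas 2.3.3, on RefSeq gene spans of GRCm38.p6, chromosomes 1 to 19 and X, without genes listed in the first 3 Mb. The length-based number is the sum, over members, of the share of protein-coding genes with a peak in the same 1 of 20 locus-length bins. The gene table holds no exons, and strand came from the RefSeq promoter table. Counting was tested on simulated intervals. Members, roles and lists were chosen with earlier results of these data known. All members are named; of the further pathway genes, the 6 with the most peaks, and Inhbc, named after its values were seen. Alternatives covered the flank, peak midpoints, stricter lists, the class of Rgma and Rgmb and the number of length bins.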

Additional observations from a re-analysis of the deposited data

How the results depend on the processing

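With the gene body alone, 5 members had a pSmad1/5 peak (18.4% of protein-coding genes; Bmp6, Inhbb and Nog were lost), 2 of them ligands and 1 an antagonist. With 5 kb on each side, 1 antagonist had a pSmad1/5 peak (23.2% of protein-coding genes). With 50 kb on each side, 14 members had a pSmad1/5 peak (47.3% of protein-coding genes), 14 a pSmad3 peak (42.4%) and 9 both (31.9%). For pSmad1/5 these were 7 ligands, 4 receptors and 3 antagonists, and for pSmad3 6 ligands, 7 receptors and 1 antagonist. With peaks at or above the median total signal, 4 members had a pSmad1/5 peak (14.4% of protein-coding genes), including 1 receptor and 0 antagonists. For pSmad3, 1 receptor had such a peak, where 14.1% of protein-coding genes did. The other 60 recounts of these results were within 1.5 times the reported count, among them every recount by peak midpoints, without peaks above 2 times the median maximum, and with Rgma and Rgmb counted as antagonists. So were those by region of the maximum and by rebuilt calls, both added after the data were seen. With 10 or 50 length bins the length-based numbers were 10.8 and 10.6 for pSmad1/5 and 9.71 and 9.59 for pSmad3. No paired analysis was possible because each antibody has 1 list that joins its libraries, and for the same reason no library could be left out. Read depth is unknown, so a missing peak means only that the list holds no line there.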

Other observations

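Widening the locus to 50 kb on each side brought peaks of both antibodies to Tgfb1, Inha, Tgfbr1 and Chrd, none of which had a peak within 10 kb. In the same setting Gdf5 and Acvrl1 gained a pSmad1/5 peak, and Gdf6, Bmpr1a, Acvr1b and Acvr2b a pSmad3 peak. The mesenchymal and epithelial tooth signals Bmp2, Bmp4 and Inhba were among the members that still had none. In this setting 57.8% of protein-coding genes had a peak of at least 1 antibody. Gdf6 lay 47.4 kb from a pSmad3 peak but 1050 kb from the nearest pSmad1/5 peak, and Bmpr2 lay 132 kb from a pSmad1/5 peak but 1440 kb from the nearest pSmad3 peak. Which gene a peak belongs to was not tested.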
